A study of Xenopus laevis with 9 samples.

Results

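The genes described here are 5 transcription factor genes of the embryonic kidney field, pax8, gata3, lhx1, osr1 and osr2, in anterior pieces of *Xenopus laevis* embryos exposed to retinoids. Members were every row of the deposited count table whose symbol, without its .L or .S ending, was 1 of these 5 names, which gave 10 rows of 58413. *X. laevis* is allotetraploid, and .L and .S mark the gene copies (homeologs) on the long and the short chromosome of a pair. These copies were kept apart.

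Wild-type embryos from 3 females were cut at stage 12.5 of Nieuwkoop and Faber (NF), at the end of gastrulation, and the anterior pieces were treated until stage 15, in the neurula, with the solvent DMSO (labelled 10 µM), with 1 µM retinoic acid (RA), or with 10 µM 4-oxo-RA, an oxidised form of RA. Each treatment had 3 libraries, numbered 1 to 3. The labels neither tie a number to a female nor say whether the cultures were separate, and the p-values reflect the scatter among these 9 libraries alone, part or all of which may be technical. The RA and 4-oxo-RA doses differed, so compound and dose cannot be told apart, and both treatments were compared with the same DMSO libraries.

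The pronephros, the first kidney of the frog embryo, forms from intermediate mesoderm behind the head. Pax8, a paired-domain factor, and Lhx1, a LIM-homeodomain factor, act together at the head of its gene cascade in *Xenopus*, and the Osr zinc-finger proteins act in the same field. Retinoic acid signalling is needed in *Xenopus* for the pronephric field to be set up. None of the 5 genes is specific to kidney: pax8 also marks the ear placode, gata3 the ear and the ventral ectoderm, and lhx1 the gastrula organizer and neurons.

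Library totals ranged from 9404644 to 20883648 counts. Levels are given as CPM, counts per 1000000 counts of the scaled library, and gene lengths were not used, so levels are compared between treatments and not between genes. The genes cyp26a1.L and cyp26a1.S encode the enzyme that degrades RA and respond to it. They lay between 11.7 and 26.9 CPM in DMSO, between 1038 and 1442 CPM in RA, and between 523 and 697 CPM in 4-oxo-RA, with no overlap between treatments. Markers of the head were abundant in DMSO, with rax.L at 191 to 273 CPM and the cement gland gene ag1.L at 1067 to 1597 CPM. In RA they lay at 174 to 220 and 978 to 1026 CPM, and in 4-oxo-RA at 175 to 216 and 983 to 1139 CPM. The head gene otx2.L lay at 199 to 247 CPM in DMSO, 38.9 to 73.7 CPM in RA and 59.8 to 95.6 CPM in 4-oxo-RA. The posterior marker cdx4.L lay at 1.72 to 6.18 CPM in DMSO, 5.95 to 9.71 CPM in RA and 3.71 to 7.73 CPM in 4-oxo-RA. Tbxt.S, counted below among both organizer genes and trunk and tail mesoderm genes, had lower levels in both treatments. It held 8.86 to 10.5 CPM in DMSO, 4.31 to 6.39 CPM in RA and 5.33 to 7.23 CPM in 4-oxo-RA. The unblocked edgeR test described below did not call it lower in either treatment. How many of all genes separate in this way was not counted. Muscle RNA varied between libraries of 1 treatment, with actc1.L at 19.6 to 265 CPM in DMSO, 5.71 to 163 CPM in RA and 38.9 to 177 CPM in 4-oxo-RA. In RNA from whole tissue pieces, fewer cells of a type and less RNA per cell cannot be told apart.

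Of the 10 members, 7 had enough counts to be tested, and 4 of these (gata3.S, pax8.L, pax8.S and osr2.L) were higher in RA than in DMSO at an adjusted p below 0.05 in edgeR's quasi-likelihood test, which was run on 20811 genes with Benjamini-Hochberg adjustment. No tested member was lower, at an adjusted or an unadjusted p below 0.05, nor was any called lower by DESeq2 or limma-voom. Among all genes tested in RA, 1.22% were called higher and 0.456% lower. The same 4 members were higher in 4-oxo-RA and none was lower by any of these tools or at an unadjusted p below 0.05, against 0.625% of all genes higher and 0.111% lower. The median log2 fold change of the 7 tested members was 1.06 in RA and 0.93 in 4-oxo-RA, beside 0.00 over all genes tested in each comparison. The members were chosen with earlier results of these data known, so setting them beside all genes does not test them as a set. Samples that shared a number deviated together, and with this number as a replicate block lhx1.L was also called, so that 5 members were higher in each treatment. In the blocked test, 3.5% of all genes were called higher and 3.17% lower in RA, and 2.05% higher and 1.31% lower in 4-oxo-RA.

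**Figure D1:**
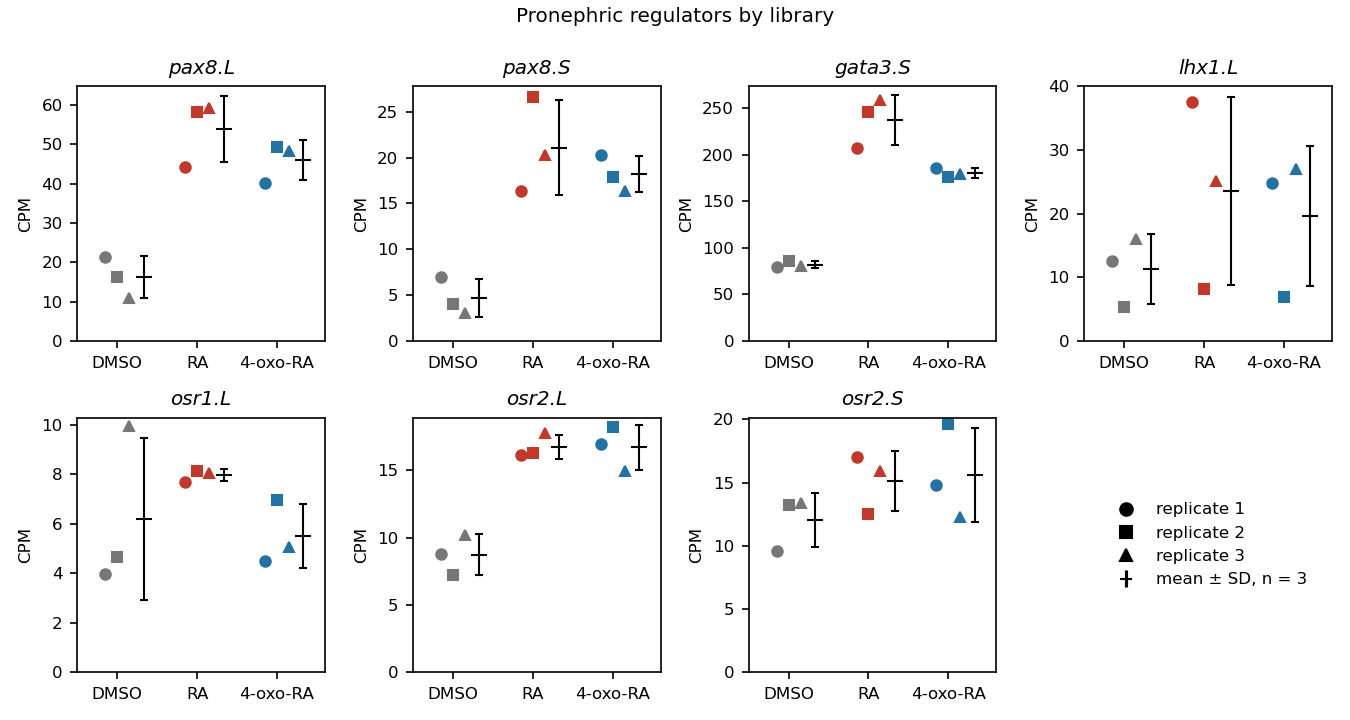
Level of each of the 7 tested members in CPM in each of the 9 libraries, by treatment, with the treatment mean. For gata3.S, pax8.L, pax8.S and osr2.L every RA and every 4-oxo-RA library lies above every DMSO library, while lhx1.L, osr1.L and osr2.S overlap. How many of all genes separate in this way was not counted.

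Gata3.S, which encodes a zinc-finger factor known from the nephric duct, the ear and the ventral ectoderm, had the most precise change of the 5 genes. Its DMSO libraries held 79.1, 85.8 and 80.6 CPM in the order of their numbers. The RA libraries held 207, 246 and 259 CPM, and the 4-oxo-RA libraries 186, 176 and 179 CPM. The 3 treatments did not overlap, with RA the highest and DMSO the lowest. For this and each other lack of overlap given for a member, the share over all tested genes was not counted. The group means were 81.8 ± 3.48 CPM in DMSO, 238 ± 26.9 CPM in RA and 180.4 ± 4.91 CPM in 4-oxo-RA (SD, n = 3 each). The log2 fold change against DMSO was 1.54 ± 0.10 (SE) in RA, a 2.90-fold difference, with an edgeR adjusted p of 3.19e-05. In 4-oxo-RA it was 1.14 ± 0.10, a 2.20-fold difference, with an edgeR adjusted p of 4.35e-04. By unadjusted p it ranked 11 among the 20811 genes in RA and 16 in 4-oxo-RA. It was called in both comparisons whichever single library was left out.

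The 2 copies of pax8, the paired-domain gene at the head of the pronephric cascade, had the largest fold changes among the tested members. Pax8.L held 21.5, 16.3 and 10.96 CPM in DMSO. It held 44.2, 58.3 and 59.2 CPM in RA and 40.1, 49.4 and 48.3 CPM in 4-oxo-RA. All 6 treated libraries were above the DMSO libraries, and RA and 4-oxo-RA overlapped. Replicate 1 had both the highest DMSO value and the lowest value of each treated group. The log2 fold change of pax8.L was 1.74 ± 0.23 in RA, with an edgeR adjusted p of 0.00227, and 1.51 ± 0.23 in 4-oxo-RA, with an edgeR adjusted p of 0.00979. Between libraries of the same number, pax8.L in RA was 2.06, 3.57 and 5.40 times its DMSO level for numbers 1, 2 and 3, and in 4-oxo-RA 1.87, 3.03 and 4.41 times.

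Pax8.S, the other copy, held 6.98, 3.99 and 3.03 CPM in DMSO. It held 16.3, 26.6 and 20.3 CPM in RA and 20.3, 17.9 and 16.4 CPM in 4-oxo-RA. Again every treated library was above every DMSO library, and the treated groups overlapped. Its log2 fold change was 2.21 ± 0.30 in RA, a 4.63-fold difference, with an edgeR adjusted p of 0.00283. In 4-oxo-RA it was 1.99 ± 0.30, a 3.98-fold difference, with an edgeR adjusted p of 0.00937. The calls of both copies in 4-oxo-RA were lost without DMSO replicate 2, with edgeR adjusted p of 0.0594 for pax8.L and 0.0674 for pax8.S. That left 1 called member in that comparison. With the replicate block the edgeR adjusted p in 4-oxo-RA was 2.03e-04 for pax8.L and 1.13e-04 for pax8.S. It was 0.0101 and 0.00364 when the replicate 2 libraries of every treatment were left out of the blocked test. With both copies summed, pax8 changed by 1.85 ± 0.23 in RA and 1.63 ± 0.23 in 4-oxo-RA on the log2 scale, with edgeR adjusted p of 0.00181 and 0.00792.

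The odd-skipped related genes osr1 and osr2 encode zinc-finger factors that act as repressors in the *Xenopus* pronephric field. Osr2.L held 8.75, 7.25 and 10.2 CPM in DMSO, 16.1, 16.2 and 17.7 CPM in RA, and 16.9, 18.2 and 14.9 CPM in 4-oxo-RA. All treated libraries were above the DMSO libraries, and the treated groups overlapped. The log2 fold change was 0.94 ± 0.18 in RA (edgeR adjusted p = 0.0234) and 0.93 ± 0.18 in 4-oxo-RA (edgeR adjusted p = 0.0388). These calls lay close to the threshold. In RA, leaving out DMSO replicate 1, DMSO replicate 2, RA replicate 2 or RA replicate 3 ended the call, with edgeR adjusted p of 0.0664 to 0.114 over these. In 4-oxo-RA it was lost without any 1 of the 9 libraries, with edgeR adjusted p of 0.0566 to 0.197. Fits of only the 2 groups compared also ended both calls (edgeR adjusted p of 0.0571 and 0.102), and limma-voom gave an adjusted p of 0.05002 in 4-oxo-RA. With the replicate block the adjusted p was 0.00204 in RA and 0.00381 in 4-oxo-RA, the latter rising to 0.0987 when the replicate 2 libraries were left out of the blocked test.

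Osr2.S did not pass the test in either comparison. It held 9.59, 13.2 and 13.4 CPM in DMSO, 17.0, 12.5 and 15.9 CPM in RA, and 14.8, 19.6 and 12.3 CPM in 4-oxo-RA, and the 3 treatments overlapped. Its log2 fold change was 0.32 in RA (95% interval -0.16 to 0.80) and 0.36 in 4-oxo-RA (-0.12 to 0.85), with edgeR adjusted p of 0.801 and 1.00. With both copies of osr2 summed, the log2 fold change was 0.61 ± 0.16 in RA and 0.63 ± 0.16 in 4-oxo-RA, and neither passed, with edgeR adjusted p of 0.124 and 0.193. Counted this way, 2 of the 5 genes (gata3 and pax8) were called in each comparison. With copies summed, edgeR called 262 genes in all in RA and 114 in 4-oxo-RA, higher and lower together. Their share of the genes tested was not computed.

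Osr1.L held 3.96, 4.67 and 9.95 CPM in DMSO, 7.70, 8.15 and 8.04 CPM in RA, and 4.49, 6.97 and 5.08 CPM in 4-oxo-RA. The DMSO libraries spanned both treated groups, through the high value of replicate 3, while all RA libraries were above all 4-oxo-RA libraries. Its log2 fold change was 0.35 in RA (95% interval -0.38 to 1.09, edgeR adjusted p = 0.901) and -0.17 in 4-oxo-RA (-0.92 to 0.57, edgeR adjusted p = 1.00). Without DMSO replicate 3 the value in 4-oxo-RA changed sign, to 0.35.

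**Figure D2:**
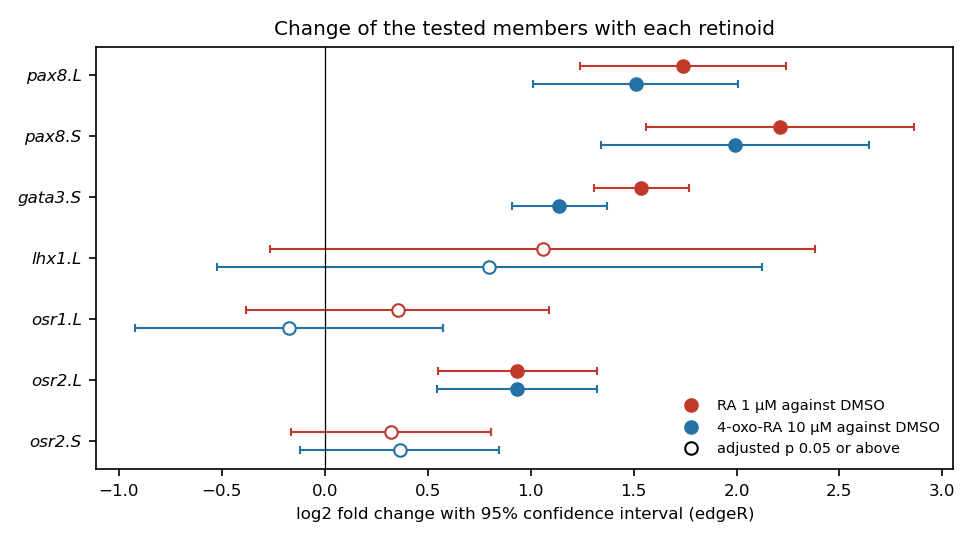
Log2 fold change of the 7 tested members in RA and in 4-oxo-RA against DMSO, with 95% intervals from edgeR. The intervals of gata3.S, pax8.L, pax8.S and osr2.L lie above 0 in both treatments.

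Lhx1.L, the LIM-homeodomain gene that works with pax8, varied more between library numbers than between treatments. It held 12.6, 5.30 and 16.1 CPM in DMSO, 37.6, 8.10 and 25.1 CPM in RA, and 24.8, 6.97 and 27.0 CPM in 4-oxo-RA. Replicate 2 was the lowest library of every treatment, and the 3 treatments overlapped. Its log2 fold change was 1.06 ± 0.60 in RA and 0.80 ± 0.60 in 4-oxo-RA, with edgeR adjusted p of 0.696 and 1.00. Within each number, however, both treated libraries were above the DMSO library, by 2.98, 1.53 and 1.56 times in RA and by 1.96, 1.32 and 1.68 times in 4-oxo-RA. With the replicate block the log2 fold change was 0.95 ± 0.18 in RA and 0.71 in 4-oxo-RA, with edgeR adjusted p of 0.00390 and 0.0489. The blocked call in RA was lost without the replicate 1 libraries (adjusted p = 0.0853). The blocked call in 4-oxo-RA was lost without the libraries of any 1 number (adjusted p of 0.0758 to 0.239).

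**Figure D3:**
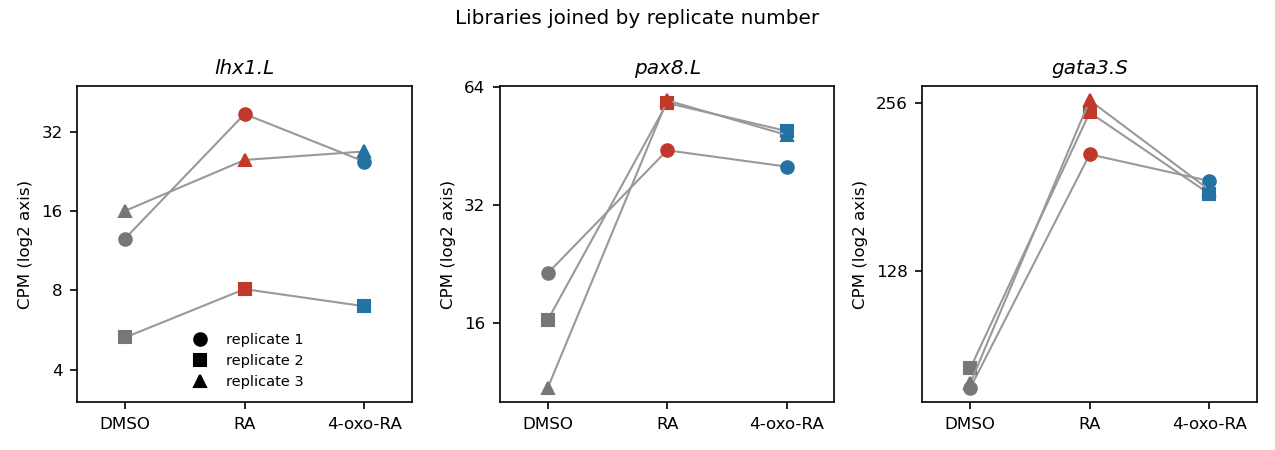
Levels of lhx1.L, pax8.L and gata3.S in CPM on a log axis, with libraries of the same number joined by a line. For lhx1.L the line of number 2 lies below the others under every treatment, and within each number DMSO is the lowest library for all 3 genes.

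The remaining 3 members, gata3.L, lhx1.S and osr1.S, had too few counts to be tested. Gata3.L had 0 counts in all 9 libraries, where 3 counts over a group, the floor used here, correspond to 0.0606 CPM in DMSO, 0.0731 CPM in RA and 0.0799 CPM in 4-oxo-RA. Lhx1.S had no count in DMSO, 6, 3 and 3 counts in RA, and 1, 0 and 3 in 4-oxo-RA. Osr1.S had 0, 2 and 0 counts in DMSO, 6, 10 and 9 in RA, and 1, 5 and 8 in 4-oxo-RA. Floors cover counting error only.

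Each of these 3 copies had a second row in the table, named by a locus number that the RefSeq annotation of the Xenopus_laevis_v10.1 assembly assigns to the same gene. The other 7 members had none. Adding the second row, a step chosen after seeing the data, gave gata3.L 17 counts over the DMSO libraries, 48 over RA and 34 over 4-oxo-RA, and in the same order lhx1.S had 12, 62 and 30 counts, and osr1.S 11, 74 and 28. In RA the log2 fold changes then were 1.58 ± 0.64 for gata3.L, 2.54 ± 0.61 for lhx1.S and 2.94 ± 0.72 for osr1.S, with edgeR adjusted p of 0.446, 0.0821 and 0.0843. With the replicate block the adjusted p was 0.153 for gata3.L, 0.0183 for lhx1.S and 0.0123 for osr1.S. The summed rows had few counts in DMSO and owed their entry into the test to treated libraries, where they were higher. Their p-values are therefore not separate support for a rise. In 4-oxo-RA none of the 3 passed with or without the block, the lowest edgeR adjusted p being 0.256. A copy at 0 under its symbol is common in this table. Among 4432 homeolog pairs in which 1 copy averaged at least 10 CPM, 794 had the other copy at 0 in every library. Second rows named by a locus number were not added for that count. The sources used here do not say how the authors' counting divided reads between near-identical copies. The division of a gene's counts between .L and .S is uncertain.

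The copies of pax8 and of osr2 could be compared within a library. In DMSO, pax8.L made up 78.0 ± 2.46% of the pax8 counts, against 72.0 ± 3.02% under RA and 71.5 ± 4.45% under 4-oxo-RA (SD, n = 3 each). Osr2.L made up 42.2 ± 6.25% of the osr2 counts in DMSO, against 52.6 ± 3.95% under RA and 52.1 ± 3.50% under 4-oxo-RA. The share of .L was thus lower in treated libraries for pax8, by -6.00 points in RA and -6.53 points in 4-oxo-RA, and higher for osr2, by 10.5 and 9.91 points. Each of these 4 differences had a two-sided exact permutation p of 0.1, the smallest that 3 libraries against 3 can give, and 0.15 after adjustment over 6 tests. Between RA and 4-oxo-RA the share differed by -0.53 points for pax8 and -0.54 points for osr2, each with an exact permutation p of 0.9. Every treated library had a higher osr2.L share (48.1 to 56.5%) than every DMSO library (35.4 to 47.7%). For pax8.L every treated library had a lower share (66.4 to 74.7%) than every DMSO library (75.5 to 80.4%). The number of other homeolog pairs whose shares separate in this way was not counted. With 3 libraries a group this test could not pass at 0.05 whatever the values.

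Set directly against each other, 10 µM 4-oxo-RA and 1 µM RA gave no called member. In edgeR no gene of the 20811 passed in either direction (0% higher and 0% lower), 532 genes had an unadjusted p below 0.05, and DESeq2 called 13 genes, limma-voom 1 and the blocked test 33. Among the members, gata3.S was the one with an unadjusted p below 0.05. Its log2 difference was -0.40 (95% interval -0.62 to -0.17, edgeR adjusted p = 1.00, with the replicate block 0.115), and its 3 4-oxo-RA libraries were all below its 3 RA libraries. It passed in the blocked test only when the replicate 1 libraries were left out (adjusted p = 0.0384). The log2 difference was -0.23 for pax8.L (-0.71 to 0.25), -0.22 for pax8.S (-0.83 to 0.39) and -0.00 for osr2.L (-0.38 to 0.38). These intervals are wide enough to hold differences of either sign.

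The genes whose profiles over the 9 libraries were nearest to those of the called members were sought among 13003 tested genes with a full symbol and a mean of at least 1 CPM. Likeness was the root mean square difference of log2 CPM after centring each gene on its own mean. For gata3.S the nearest was rara.L, which encodes a retinoic acid receptor, at a difference of 0.11, followed by gse1.L, spry2.S and stard9.L at 0.16 to 0.18. For pax8.L they were hpcal1.L at 0.14, and then sfrp2.S, hoxb2.S and meis3.L at 0.20 to 0.21. For pax8.S they were sh2d3c.S, hoxb1.S, meis3.L and hpcal1.L at 0.26 to 0.31, so that the pax8 copies shared meis3.L and hpcal1.L. The pax8 copies themselves differed by 0.29. For osr2.L they were bahcc1.S, slc4a1.L, rcan1.L and tfcp2l1.L at 0.14 to 0.15.

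Other regulators of the pronephric field were read from a list of 32 gene symbols, of which 38 rows were tested. In RA 6 of these rose and none passed as lower in edgeR, with a list median of -0.17 beside 0.00 over all genes. An unadjusted p below 0.05 was found for 21 rows, and DESeq2 called 12 and limma-voom 7, higher and lower together. The genes that rose were foxc1.L (3.28 ± 0.38) and foxc1.S (1.06 ± 0.21), forkhead genes of mesoderm, mecom.L (1.60 ± 0.31) and mecom.S (1.82 ± 0.37), irx3.L (0.72 ± 0.16) and tfcp2l1.L (0.86 ± 0.13), each a log2 fold change with its SE. In level, foxc1.L went from 2.76 CPM in DMSO to 25.7 CPM in RA, with an edgeR adjusted p of 8.96e-04, and tfcp2l1.L from 81.6 to 148 CPM, with an edgeR adjusted p of 0.00506. The count fell to 2 or 3 without any 1 of DMSO replicates 1 to 3 or RA replicates 2 and 3. The genes that lost their call in at least 1 such test were mecom.L, mecom.S, foxc1.S and irx3.L, and tfcp2l1.L lost its call with homeologs summed. Without RA replicate 1 or RA replicate 3, 1 row passed as lower.

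In 4-oxo-RA 1 row of this list rose and none passed as lower, with a list median of -0.05. An unadjusted p below 0.05 was found for 9 rows, and DESeq2 called 4 and limma-voom 1. The row that rose was foxc1.L, at 15.7 CPM and a log2 change of 2.57 ± 0.37. Its edgeR adjusted p was 0.00814, which became 0.0606 once DMSO replicate 2 was dropped. Against RA none of the 38 passed in edgeR, DESeq2 or limma-voom, 5 of them having an unadjusted p below 0.05. With the replicate block the list had 8 higher and 12 lower in RA, and 4 higher and 1 lower in 4-oxo-RA. Those lower in RA in the blocked test included wnt4.L and wnt4.S, which encode a Wnt ligand of kidney tubules, pax2.L, dll1.L, which encodes a Notch ligand, irx2.S and tfap2b.L.

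**Figure D4:**
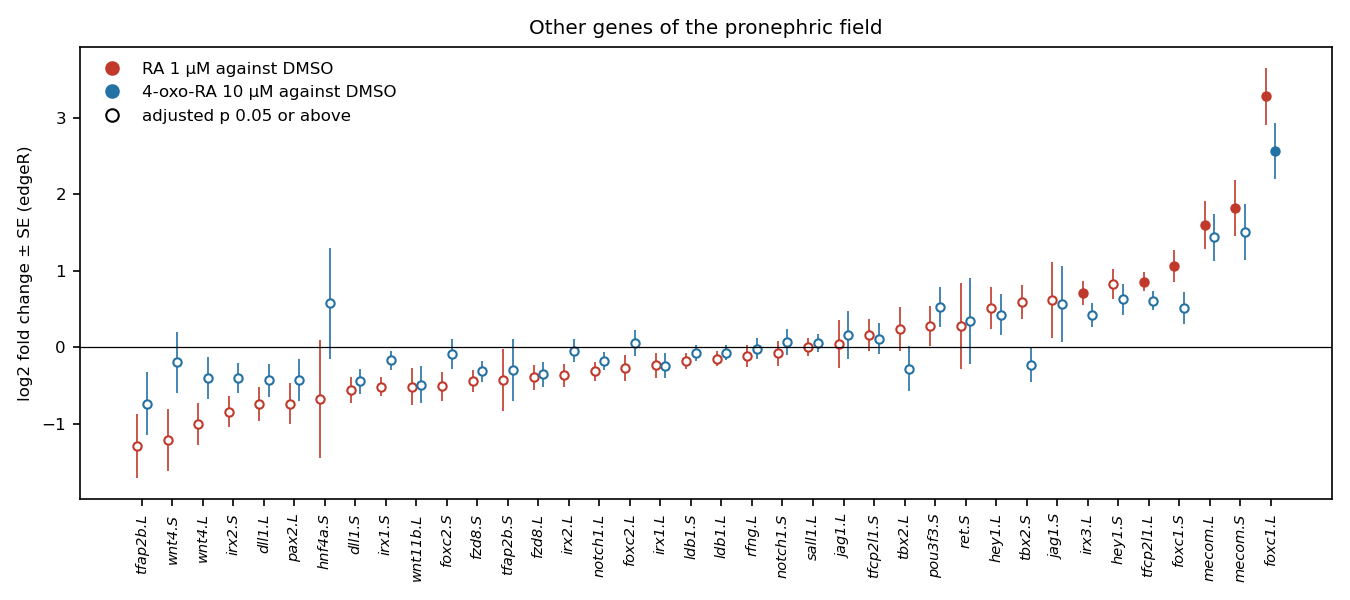
Log2 fold change with its SE in RA and in 4-oxo-RA against DMSO for the other 38 tested genes of the pronephric field list, with filled points for those called. Foxc1.L lies highest in both comparisons, at 3.28 in RA and 2.57 in 4-oxo-RA, and the list median is -0.17 in RA and -0.05 in 4-oxo-RA.

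Genes of the differentiated pronephros, such as transporters and slit diaphragm proteins, had 24 rows, of which 9 were tested. Their summed level was 297 to 333 CPM in DMSO, 248 to 271 CPM in RA and 244 to 279 CPM in 4-oxo-RA. By this sum, the treated libraries were below the DMSO libraries. The median log2 fold change of the 9 tested rows was 0.015 in RA and -0.07 in 4-oxo-RA. A sum can follow a few abundant rows, and how often sums of other genes separate in this way was not counted. A further 10 rows had 0 counts in every library, among them slc12a1.L, cdh17.L and both copies of slc4a4, but second rows under a locus number were not sought for this list. None of the 9 passed in RA or in 4-oxo-RA in edgeR, 2 and 3 of them having an unadjusted p below 0.05, and DESeq2 and limma-voom each called 1 in RA and none in 4-oxo-RA. With the replicate block none was higher and 2 were lower in each treatment. Those lower were in both cases aqp3.L, which encodes an aquaporin, and lrp2.L, which encodes the endocytic receptor megalin. Without the block the log2 fold change in RA was -1.84 for aqp3.L and -0.61 for lrp2.L, with edgeR adjusted p of 0.0973 and 0.106.

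Since pax8, gata3 and lhx1 are also used outside the kidney, markers of other tissues were counted in the same tests. Some genes stand in several of these lists and count in each, so the counts are not independent. Tbx1 is in the placode and lateral plate lists, and otx2 in the placode, organizer and head lists. Of 34 tested rows of placode and ear genes, 6 rose and 5 fell in RA, and 6 rose and 1 fell in 4-oxo-RA, and their summed level was 1918 to 1998 CPM in DMSO, 2068 to 2218 CPM in RA and 1945 to 2198 CPM in 4-oxo-RA. The count of 5 fell to 2 or 3 without any 1 of the DMSO libraries or of RA replicates 2 and 3, and the count of 1 to 0 without any 1 DMSO or 4-oxo-RA library, and was 2 without RA replicate 1. Under the block 11 were higher and 8 lower in RA, and 9 higher and 6 lower in 4-oxo-RA. Those that rose in both without the block were ripply3.S, tbx1.L, tbx1.S, fgf8.L, fgf8.S and foxi4.2.S. The row that fell in 4-oxo-RA was otx2.L (log2 fold change -1.39, edgeR adjusted p = 0.0286). The 5 that fell in RA are not named here. Ripply3.S, which encodes a repressor of the posterior placode region that responds to RA in *Xenopus*, had a log2 fold change of 4.18 ± 0.38 in RA and 3.23 ± 0.37 in 4-oxo-RA.

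Of 25 tested rows of ventral ectoderm and blood genes, none passed in either comparison in edgeR or limma-voom, 6 in RA and 2 in 4-oxo-RA having an unadjusted p below 0.05, and DESeq2 called 3 and 1. The block gave 3 higher and 4 lower in RA, and none higher and 4 lower in 4-oxo-RA. Their summed level overlapped between treatments, at 3622 to 4257 CPM in DMSO, 4064 to 5031 CPM in RA and 4002 to 4092 CPM in 4-oxo-RA. Gata2.L, which encodes the factor most like Gata3 in this list, differed by 0.43 ± 0.14 on the log2 scale in RA, with an edgeR adjusted p of 0.247, and of 0.0170 with the block. Organizer and prechordal genes, read because lhx1 is one of the organizer's genes, had 4 lower rows of 18 in RA and 2 in 4-oxo-RA, and none higher. Their summed level was 717 to 800 CPM in DMSO, 458 to 516 CPM in RA and 506 to 565 CPM in 4-oxo-RA. The goosecoid copy gsc.S fell by 2.36 on the log2 scale in RA. The 2 calls in 4-oxo-RA, gsc.S and otx2.L, were lost without any 1 DMSO or 4-oxo-RA library. The blocked test called 8 rows lower in RA and 7 in 4-oxo-RA.

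Lateral plate and heart genes had 4 higher rows of 27 in RA (tbx1.L, tbx1.S, gata5.L and foxf2.L) and 2 in 4-oxo-RA, and none lower without the block. In the blocked test 8 were higher and 7 lower in RA, and 4 higher and 8 lower in 4-oxo-RA. Their summed level was 769 to 868 CPM in DMSO, 917 to 1015 CPM in RA and 795 to 825 CPM in 4-oxo-RA. The count in 4-oxo-RA was 1 without DMSO replicate 1 or any 1 4-oxo-RA library. Trunk and tail mesoderm genes had 1 higher row of 20 in RA, mespa.L, at 2.93 ± 0.53, which was not called without DMSO replicate 2 or RA replicate 3. In 4-oxo-RA none of the 20 passed in edgeR or limma-voom, 2 having an unadjusted p below 0.05 and DESeq2 calling 1. When blocked, 1 was higher and 5 were lower in RA, and 1 was higher in 4-oxo-RA. Their summed level overlapped, at 253 to 528 CPM in DMSO, 140 to 424 CPM in RA and 198 to 418 CPM in 4-oxo-RA, and was highest in replicate 1 of each treatment. Without RA replicate 1, 2 rows each of the lateral plate, trunk mesoderm and differentiated pronephros lists passed as lower in RA, and 2 of the lateral plate list in 4-oxo-RA. Without DMSO replicate 3, 1 ventral ectoderm or blood row passed as higher in RA. The part of these tissues in the levels of the members was not tested.

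Head genes had 12 lower rows of 29 in RA and 4 in 4-oxo-RA, and RA pathway genes 8 higher rows of 26 and 7. Blocked, 18 and 16 head genes were lower, and 13 RA pathway genes were higher and 3 lower in each treatment. The count of 12 fell to 6 or 7 when DMSO replicate 1, DMSO replicate 3, RA replicate 2 or RA replicate 3 was left out, and the count of 4 to 1 or 2 without any 1 DMSO or 4-oxo-RA library. Genes next to the called members on the Xenopus_laevis_v10.1 assembly, used for gene order alone, were examined after the members' values were known. Of the 24 genes within 3 places on either side of gata3.S, pax8.L, pax8.S and osr2.L, 14 were tested. None was called in either comparison by edgeR, DESeq2 or limma-voom, and 0 in RA and 1 in 4-oxo-RA had an unadjusted p below 0.05. The blocked test called 1 in RA, the unnamed locus LOC108711576 near pax8.L, and 0 in 4-oxo-RA.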

How the data were processed

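The files hold whole-number read counts per gene, deposited by the authors as 1 table of 58413 genes and 9 libraries and as 9 single tables equal to its columns. Alignment used STAR 2.7.3, per the submitters' processing notes, on stranded mRNA libraries, per the labels' protocols. The counting tool, its strand setting, the genome build and the annotation are not given in the sources used here. The members and gene lists were chosen with earlier results of these data known. One gene each of the pronephric field and differentiated pronephros lists is not reported here.

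Genes were filtered with filterByExpr on the 3 treatments, which left 20811, scaled by TMM, and tested with edgeR 4.0.16 (quasi-likelihood, all 9 libraries in 1 fit with treatment as the term) in R 4.3.3, with p-values adjusted over all genes tested and a threshold of 0.05. CPM are counts per 1000000 TMM-scaled counts, and log2 CPM of profiles used a prior count of 2. The edgeR test was also run on simulated counts of independent libraries with a common spread. These lack the likeness of libraries that share a number, so that run does not cover it. Alternatives were DESeq2 1.42.0, limma-voom (limma 3.58.1), no filter on low counts, at least 10 counts in every library, fits of only the 2 groups compared, homeologs summed, each library left out, and the replicate number as a block. Libraries with the same number deviated together (r of 0.434 to 0.536 for every same-number pair, -0.326 to -0.132 for the others), so the numbers pair the samples. Each gene was centred on its mean within each treatment, so positive r for same-number pairs pushes the others below 0. The negative values are therefore not separate evidence. Within each treatment, every pair of libraries differed by more than sampling noise (chi-square over its degrees of freedom, 14.3 to 21.6). Named genes were all members, the called genes of each list with the smallest adjusted p (at most 4, and 8 for the pronephric field list), the 4 nearest profiles of each called member, and cyp26a1. Some genes were named after their values were seen. These were the tissue markers rax.L, ag1.L, cdx4.L, tbxt.S and actc1.L, the genes lower in the blocked test, gata2.L, aqp3.L, lrp2.L and the rows at 0. Floors are 3 counts, and intervals are at 95%. Depth ranged from 9404644 to 20883648 counts.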

Additional observations from a re-analysis of the deposited data

How the results depend on the processing

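Of the members' fold changes against DMSO, the one that changed sign under any alternative was osr1.L in 4-oxo-RA, which ranged from -0.40 to 0.35 with 1 library left out (0.35 without DMSO replicate 3) and was 0.40 in the replicate block without the libraries of number 3. The cause was not tested. The number of members higher in RA was 2 with homeologs summed, where the pax8 copies are merged and osr2 was not called. With 1 library left out it was 3 to 4. In these settings 262 and 194 to 366 genes were called in all in RA, higher and lower together. In 4-oxo-RA the number of members was 2 with homeologs summed and 1 to 3 with 1 library left out. The genes called in all were 114 and 75 to 150. Shares of the genes tested were not computed for these settings. Without the filter on low counts lhx1.L was called in RA (adjusted p = 0.00208).

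Counts of genes called in all moved more. Against the 349 of RA, DESeq2 gave 651, no filter on low counts 831 and the replicate block 1389, the leave-one-out tests 194 to 366, and the block without number 1, 2 or 3 gave 1262, 822 and 806. Against the 153 of 4-oxo-RA these were 336, 453, 700, 75 to 150, and 569, 376 and 408. Between the retinoids, against 0, they were 13, 46, 33, 0 to 1, and 102, 23 and 9, with 1 by limma-voom. There the block without number 1 called 1 member lower, gata3.S. The replicate block ended no member's call.

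Between 4-oxo-RA and RA, small differences changed sign. With 1 library left out lhx1.L ranged from -0.68 to 0.24, osr2.L from -0.073 to 0.073 and osr2.S from -0.16 to 0.19. For lhx1.L the value was positive without RA replicate 1 or 4-oxo-RA replicate 2 (0.24 and 0.14). For osr2.L it was positive, at 0.00021 without the filter, 0.0024 with at least 10 counts in every library, 0.00016 in the fit of these 2 groups, 0.044 and 0.073 without RA or 4-oxo-RA replicate 3, 0.021 with homeologs summed, and 0.12 in the block without number 3. For osr2.S it was negative, at -0.081 and -0.16 without RA or 4-oxo-RA replicate 2, and -0.28 in the block without number 2. The .L share difference ranged from -2.23 to 2.01 points for pax8 and from -2.54 to 1.43 points for osr2 with 1 library left out. The cause of these changes was not tested. At 3 libraries a group, a common coefficient of variation of 27.2% between replicates (13.8% within the block) limits what can be called.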
